A study of Mus musculus with 16 samples.

Results

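The genes described here encode the translation initiation factors (symbols starting with Eif) and the elongation factors (symbols starting with Eef). A gene was taken where a probe set of the array names it alone, and the probe set with the highest mean signal stood for the gene. This gave 49 of the 8251 genes with a single-gene probe set, represented by 66 probe sets among 12488, and 1 further probe set that names several genes was left out. Signals came from 16 Affymetrix U74Av2 arrays of mouse RNA in 6 groups. Of the embryonic stem (ES) cell groups, 3 arrays were of an Abca1 +/- ES cell line, heterozygous for a mutation of the cholesterol exporter Abca1, and 3 were of its +/+ parent ESVJ. Both lines were grown on irradiated embryonic fibroblast feeders and then kept about 2 days on gelatin without them. Another 3 arrays were of a Cdk4 +/- ES cell line, heterozygous for the cell cycle kinase Cdk4, and 3 of its +/+ control E14, both grown without feeders. The remaining 4 arrays were of frozen liver from mice of 129/SvJ and C57BL6/J mixed ancestry, 2 labelled +/+ and 2 labelled Abca1 +/-. The labels give neither age nor sex of the mice, each ES genotype is 1 line, and nothing says whether the arrays of a group came from separate cultures or animals, so that p-values measure the spread between these arrays, which may be technical. The labels number no replicates either, and replicate numbers below only name the arrays of a group in the order of deposit.

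In eukaryotic initiation, eIF2 carries the initiator methionyl-tRNA to the small ribosomal subunit as a GTP complex, and eIF2B recharges eIF2 with GTP after each round. Kinases that phosphorylate eIF2alpha block this recharging and lower global protein synthesis. The scaffold eIF3, with eIF1, eIF1A and eIF5, holds the subunit ready for scanning, and eIF4F (the cap-binding protein eIF4E, the helicase eIF4A and the scaffold eIF4G) brings it to the capped mRNA. The eIF4E-binding proteins hold eIF4E away from eIF4G until mTORC1 phosphorylates them. Elongation then uses eEF1A to deliver aminoacyl-tRNA, the eEF1B complex to recharge eEF1A, and eEF2 to translocate the ribosome. Many of these factors are needed in every cell, and their synthesis is tied to cell growth.

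The promoters of these genes are shown first because many of the members differed in one direction between tissues and because a short motif occurred in a share of them. RefSeq starts on GRCm38.p6 were matched for 41 of the 49 genes, with 56 starts in all. Windows of 300 bases, from 250 before to 50 after each start, were searched on both strands for the E-box CACGTG, the palindrome bound by Myc, Max, USF and other basic helix-loop-helix factors. At least 1 window held it in 10 of 41 members (24.4%), against 8.09% of 27025 genes with such windows. Counted by start it was in 12 of 56 windows (21.4%), against 7.15% of 32851 in all. Windows of nearby starts overlap, so this is not an independent count, and 2 windows of Eif5a share 1 E-box. The 10 genes were Eef2, Eef2k, Eif1b, Eif3a, Eif3f, Eif3k, Eif4a1, Eif4e, Eif4h and Eif5a. The comparison set was not matched for base composition or gene type, and a match is a string of letters in the window. A composite element bound by ATF4 with C/EBP factors, searched as TGATGNAAN, was in 2 of 41 members (Eef2k and Eif2s3x, 4.88%) and in 4.5% of all genes. The stretches below run from 60 bases before to 30 bases after the start, 5′ to 3′ on the gene's strand, with the E-box in capitals. Eef2 (chr10:81176571-81176660, plus strand), Eif3a (chr19:60790664-60790753, minus strand) and Eif3k (chr7:28981859-28981948, minus strand) had lower signals in liver than in ES cells. Of 41 members tested, 33 were lower in +/+ liver than in ESVJ, and Eif3f, with an E-box, was not among them. The median difference was -1.37 for the 6 tested members with an E-box and -1.51 for the 28 without. Eif1b (chr9:120492546-120492635, plus strand) was the member called higher in the Cdk4 +/- line. That call was lost in 3 of 6 fits with 1 array left out.
Eef2: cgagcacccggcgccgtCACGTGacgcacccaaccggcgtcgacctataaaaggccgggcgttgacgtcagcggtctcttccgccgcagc
Eif1b: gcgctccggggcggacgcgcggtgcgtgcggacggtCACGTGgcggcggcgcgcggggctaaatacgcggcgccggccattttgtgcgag
Eif3a: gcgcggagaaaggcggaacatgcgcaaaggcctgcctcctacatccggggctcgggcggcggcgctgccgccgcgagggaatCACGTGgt
Eif3k: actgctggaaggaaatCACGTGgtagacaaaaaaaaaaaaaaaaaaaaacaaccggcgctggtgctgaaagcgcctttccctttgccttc
The E-box of Eef2 starts 43 bases before the RefSeq start, that of Eif1b 24 bases before it and that of Eif3k 44 bases before it, while that of Eif3a lies at base 23 of the transcript.

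All signals below are MAS5 signals brought to a trimmed mean of 500 on every array. A difference is of log2(signal + 32), fitted with limma and adjusted by Benjamini-Hochberg over all probe sets tested, and a fold is on that scale, which understates the change of low signals. A gene passed when its adjusted p was below 0.05. The cell identity of the groups matched their labels: summed signals of 10 ES cell markers ran from 33921 to 64406 in ES arrays and from 571 to 832 in livers, and those of 7 hepatocyte markers from 331 to 694 and from 130336 to 181631. Cdk4 fell in the Cdk4 +/- line, from 5716 ± 188 to 3678 ± 209 (SD, n = 3), by 0.63 on the log2 scale (SE 0.10, limma adjusted p = 0.00436). Abca1 was 110 ± 14.8 in the Abca1 +/- ES line and 141 ± 38.1 in ESVJ (SD, n = 3; adjusted p = 0.9997), and in the livers labelled Abca1 +/- it was 627 ± 102 against 314 ± 18.5 in +/+ livers (SD, n = 2), the opposite order to the label. Replicate 1 of the livers labelled Abca1 +/- stands apart: its actin 3′-to-5′ probe set ratio was 8.23, against 1.78 to 2.14 in the other 3 livers and 1.04 to 1.40 in ES arrays. Results that rest on the labelled livers are therefore given with and without single arrays.

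**Figure D1:**
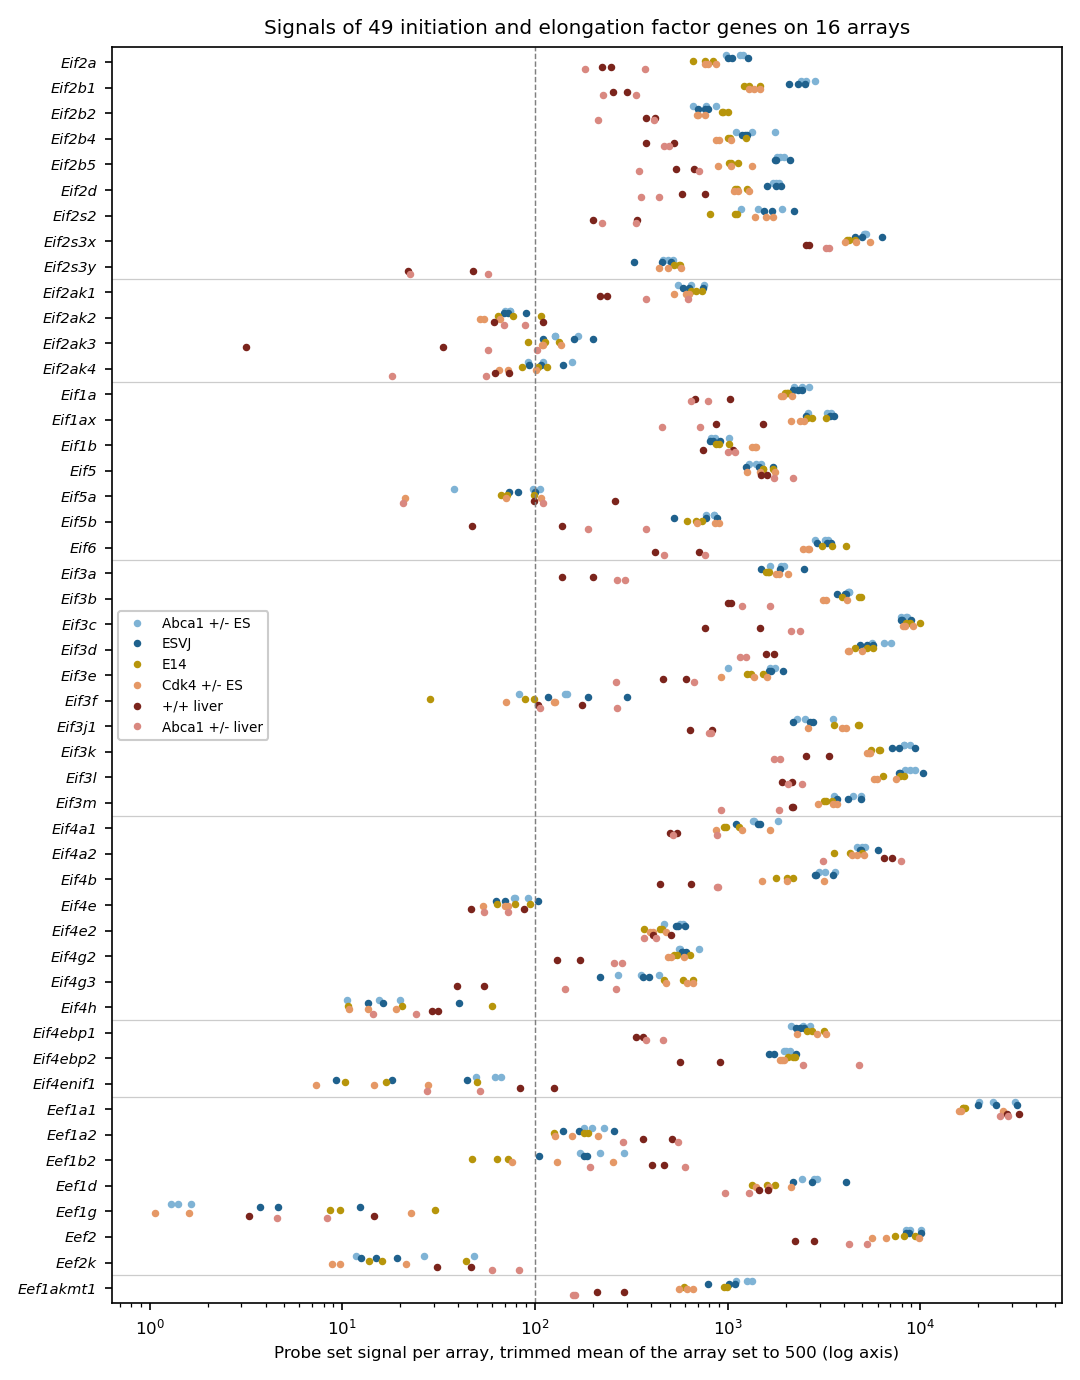
Rescaled signal of each of the 49 genes (rows, grouped by class from eIF2 at the top to the elongation factors and Eef1akmt1 at the bottom) on each of the 16 arrays (points, coloured by group) on a log axis; the dashed line marks the signal filter of 100. Liver points lie to the left of the ES points for most genes with ES signals above it, for example Eif3c (767 to 2364 against 7923 to 9945), while Eef1a1 overlaps (26064 to 32449 against 15951 to 31814).

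The signal filter asked for a mean of 100 or more among the arrays fitted, which left 42 of the 49 genes to test among ES groups, 41 between liver and ES cells and 40 between livers. Below it in every fit were Eif4e, Eif4h, Eif4enif1, Eif2ak2, Eef1g and Eef2k, and Eif5a passed it only among livers. Some genes passed the filter only through the group where they were high, which favours a call: among the calls below, the lower group had a mean under 100 for Eif2s3y, Eif2ak3, Eif4g3 and Eif5b in +/+ liver and for Eif3f and Eef1b2 in E14, and the size of these differences rests on signals near the bottom of the scale. The signals of Eef1g, a subunit of eEF1B, ran from 1.07 to 30.4 over the ES arrays and from 3.30 to 14.6 in livers. For the cap-binding protein Eif4e they were 53.5 to 103 in ES arrays and 46.8 to 87.7 in livers. Values this low give no order between groups, and a dim probe set does not show that the transcript is missing, since signals of different probe sets are not comparable. Among the chosen probe sets, those of Eif2s3y, Eif4a1, Eef1b2, Eif4b and Eif2b4 carry suffixes by which Affymetrix marks probes that may also detect related sequences or that met fewer design rules.

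Liver had lower signals than ESVJ cells for most factors of initiation. Of 41 genes tested, 33 were lower and 2 higher in +/+ liver, against 43.9% lower and 23.5% higher among all 7883 probe sets (67.4% in either direction). Of the 33 lower genes, 29 had a mean above 100 in both groups. The median difference of the members was -1.60 on the log2 scale, against -0.38 over all probe sets. With quantile normalization the median of all probe sets moved by 0.29 to -0.09, the share of all calls that were higher went from 34.9% to 45.5%, and the members still gave 33 lower and 2 higher with a median of -1.40. Liver and ES cells differ in cell types, growth and preparation at once, and in bulk RNA fewer cells of a type and less RNA per cell cannot be told apart.

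All 9 tested genes of eIF2, eIF2B and the related Eif2a and Eif2d were lower in +/+ liver, with a median of -1.60; 1 of them, Eif2s3y, is a gene that the filter kept through the ES cells alone. Eif2b1, the alpha subunit of eIF2B, read 2323, 2531 and 2090 in ESVJ and 2854, 2411 and 2546 in the Abca1 +/- ES line. It read 300 and 253 in +/+ liver and 336 and 225 in the livers labelled Abca1 +/-. The 2 tissues did not overlap, and the difference of -2.93 (SE 0.20, limma adjusted p = 5.07e-08) is a 7.61-fold lower signal. Eif2s2, the beta subunit of eIF2, was lower by a similar amount (-2.63, SE 0.28), with 1690, 1538 and 2204 in ESVJ and 200 and 339 in +/+ liver. The X-linked gamma subunit gene Eif2s3x was closer between tissues, at 4598 to 6364 in ESVJ and 2647 and 2551 in +/+ liver (-1.01, SE 0.18). Its Y-linked copy Eif2s3y ran from 326 to 575 on the 12 ES arrays and from 21.9 to 56.8 on the 4 livers (-2.79, SE 0.29 against ESVJ). Beside it, the Y-linked gene Uty ran from 80.7 to 132 in ES arrays and from 10.1 to 29.8 in livers. The Y-linked gene Kdm5d was dim in both and overlapped, at 5.83 to 29.8 in ES arrays and 7.76 to 31.9 in livers. Xist, transcribed from the inactive X, ran from 15.3 to 46.7 in ES arrays, with 144 and 76.5 in +/+ livers and 113 and 992 in those labelled Abca1 +/-. The sex of the mice is not given and its part in the Eif2s3y difference was not tested. Eif2a (-2.09), Eif2b5 (-1.60), Eif2b4 (-1.39), Eif2d (-1.36) and Eif2b2 (-0.87) completed the class. The call for Eif2b2 was lost with quantile normalization (-0.42, adjusted p = 0.117).

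Of 2 eIF2alpha kinases tested, both were lower in +/+ liver, but Eif2ak3 is a gene that the filter kept through the ES cells alone. Eif2ak2 and Eif2ak4 were below the filter and not tested here. Eif2ak1, the heme-regulated kinase, read 588, 633 and 746 in ESVJ and 217 and 238 in +/+ liver (-1.40, SE 0.23), while the livers labelled Abca1 +/- read 623 and 377, the first of them within the ES range of 525 to 754. Eif2ak3, the kinase of the endoplasmic reticulum known as PERK, was dim throughout, from 91.7 to 201 on ES arrays and at 33.3 and 3.16 in +/+ liver (-1.95, SE 0.34). The livers labelled Abca1 +/- read 103 and 57.1, so that the tissues overlapped for both kinases when all 4 livers were counted. For both, the overlap came from replicate 1 of the labelled livers alone, the array with the actin ratio of 8.23. The other livers lay below all ES arrays.

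The class of eIF1, eIF5 and eIF6 split. Eif6, which keeps the large ribosomal subunit from joining too early, read 2899, 3441 and 3286 in ESVJ against 712 and 420 in +/+ liver, a 5.57-fold difference (-2.48, SE 0.25). Eif5b, the GTPase of subunit joining, was lower by 2.68 (SE 0.35), and the eIF1A genes Eif1a and Eif1ax by 1.44 and 1.42. A second probe set of Eif1ax ran the other way, and with the mean of both probe sets the difference was -0.45 (adjusted p = 0.0741). Eif5, the GTPase-activating protein of eIF2, read 1722, 1247 and 1452 in ESVJ and 1610 and 1487 in +/+ liver, so that the tissues overlapped (0.08, interval -0.33 to 0.49). Eif1b, a close relative of the start codon factor eIF1, also overlapped, at 808 to 910 and at 1062 and 743 (0.06, interval -0.37 to 0.49).

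Within eIF3, 9 of 10 subunits tested were lower in liver, with a median of -1.71. Eif3a, the largest subunit and scaffold of the complex, showed the largest difference of any member, with 1860, 1487 and 2484 in ESVJ and 138 and 201 in +/+ liver. This is a 9.72-fold lower signal (-3.28, SE 0.23, limma adjusted p = 6.70e-08), and the livers labelled Abca1 +/- read 267 and 294. Eif3c, another core subunit, went from 7998, 8983 and 7955 to 1464 and 767 (-2.93, SE 0.23). The subunits were not lower in equal measure: Eif3l (-2.05), Eif3b (-1.92), Eif3j1 (-1.76), Eif3e (-1.66), Eif3d (-1.65) and Eif3k (-1.45) lay between, and Eif3m was lower by 0.96 (SE 0.26). Eif3e had a second probe set of opposite sign. The probe set of Eif3f was dim in both tissues (116 to 299 in ESVJ, 104 and 176 in +/+ liver) and did not pass.

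Of 6 genes tested in the eIF4F class, which takes in related factors and cofactors beside the subunits of eIF4F, 4 were lower. Eif4b, a cofactor of the helicase, read 2828, 2876 and 3510 in ESVJ and 647 and 448 in +/+ liver (-2.44, SE 0.20), Eif4g3 was lower by 2.14 (SE 0.31), Eif4g2 by 1.78 (SE 0.20) and the helicase gene Eif4a1 by 1.30 (SE 0.24). The other helicase gene, Eif4a2, read 6007, 4948 and 4869 in ESVJ against 6490 and 7147 in +/+ liver; all values of +/+ liver were higher, but the difference of 0.37 (SE 0.30, adjusted p = 0.291) did not pass. Eif4e2, a cap-binding relative of eIF4E, did not pass either (-0.29, interval -0.71 to 0.14), although its second probe set was lower in liver by 0.96 (adjusted p = 0.0202). Both eIF4E-binding protein genes were lower in +/+ liver: Eif4ebp1 read 2370, 2501 and 2261 in ESVJ and 365 and 335 in +/+ liver (-2.66, SE 0.18, adjusted p = 4.29e-08), and Eif4ebp2 was lower by 1.34 (SE 0.28). For the chosen probe set of Eif4ebp2 this holds for the +/+ livers alone, since the livers labelled Abca1 +/- (4822 and 2450) lay above all 12 ES arrays (1647 to 2255). The second tested probe set read 270 and 457 in the labelled livers, below ESVJ at 741, 883 and 665. On that probe set these livers overlapped the Abca1 +/- ES line, at 617, 421 and 486.

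The elongation factors did not share one direction. Eef2 read 8788, 8436 and 10058 in ESVJ and 2812 and 2233 in +/+ liver, a 3.59-fold lower signal (-1.84, SE 0.19), and the eEF1B subunit gene Eef1d was lower by 0.90 (SE 0.25). Eef1a1, the common form of eEF1A, read 19908, 24804 and 31814 in ESVJ and 32449 and 28095 in +/+ liver, and the groups overlapped (0.27, interval -0.29 to 0.83). Eef1a2, the eEF1A form known from muscle and neurons, was higher in liver (363 and 515 against 141, 169 and 258; 1.11, SE 0.31), as was the dim probe set of Eef1b2 (404 and 468 against 105, 187 and 179; 1.34, SE 0.38). Without replicate 2 of the +/+ livers neither of these 2 higher calls stood, with Eef1a2 at 0.87 (adjusted p = 0.0733) and Eef1b2 at 1.24 (adjusted p = 0.0558). A second Eef1b2 probe set, below the filter and not tested, overlapped, at 132 and 48.4 in +/+ liver and 75.3 to 111 in ESVJ. With the mean of E14 and ESVJ as the control, Eef1d was lower by 0.46 (adjusted p = 0.0573), its signal being lower in E14 than in ESVJ. Eef1akmt1, a methyltransferase that modifies eEF1A, was lower in liver by 1.83 (SE 0.21). Eef1d, Eef1a2, Eif3m, Eif2b2 and Eef1b2 ranked after the first 30 calls by p and are named here after their values were seen.

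**Figure D2:**
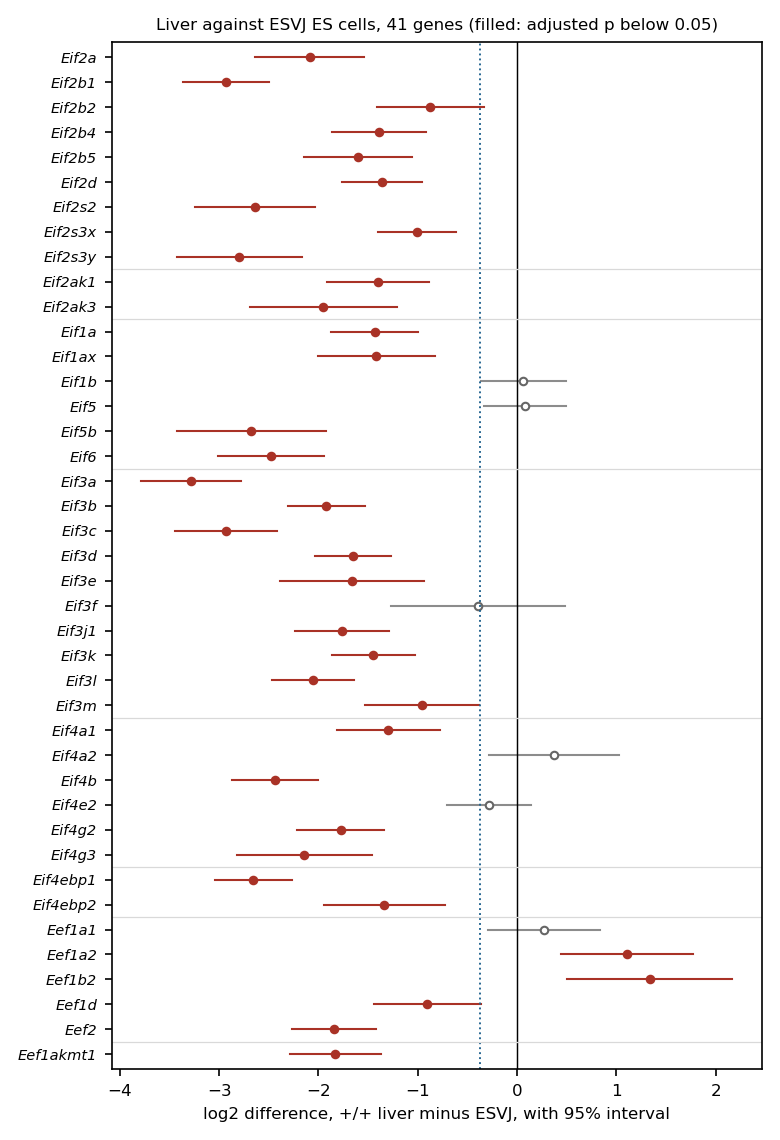
log2 difference of +/+ liver minus ESVJ for the 41 genes tested, ordered by class from eIF2 at the top, with the 95% interval of the fit; filled red points passed, and the dotted line is the median of all probe sets (-0.38). 33 filled points lie left of 0, and those of Eef1a2 (1.11) and Eef1b2 (1.34) lie right of it.

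Members with and without the promoter motif overlapped in the size of these differences. The 6 tested members with an E-box had a median of -1.37, with values from -3.28 for Eif3a to 0.06 for Eif1b, and the 28 without one had a median of -1.51.

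The other genes of translation gave their own counts in the same comparison, in which 67.4% of all probe sets differed. All 20 tested genes of the cytosolic aminoacyl-tRNA synthetases and their scaffold proteins, which charge tRNAs, were lower in liver, with a median of -2.44. Farsa (-3.97), Lars (-2.54), Iars (-2.60) and Farsb (-3.05) had the smallest p. The 4 tested genes of termination and hypusination were lower too, with the release factor genes Etf1 (-4.01), Gspt1 (-2.70) and Gspt2 (-1.75) and the eIF5A hydroxylase Dohh (-1.91). Among 12 partners of initiation, 9 were lower, led by Bzw2 (-3.99), the poly(A)-binding protein genes Pabpc1 (-3.84) and Pabpc4 (-3.04) and the helicase Ddx3x (-3.62). Dap, a translation regulator of growth arrest, was higher by 4.62, as was Pdcd4, an inhibitor of eIF4A, by 1.15. The mTORC1 and S6 kinase list of 11 genes gave 4 lower (Ddit4 -2.0, Pdpk1 -0.98, Pik3ca -1.85, Tsc2 -0.86) and 1 higher (Akt2, 1.32). Of 7 genes of eIF2 phosphatases and the ATF4 response, 4 were lower (Asns -2.73, Ppp1cc -1.51, Ppp1r15a -1.13, Atf4 -0.58) and Dnajc3, an inhibitor of PERK, was higher by 1.92. Of 4 mitochondrial factor genes, Gfm1, Tsfm and Tufm were lower by 0.81, 0.60 and 0.67, and Mtif2 was higher by 0.69.

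Between the wild-type ES lines, 15 of 42 members differed (35.7%), against 42.6% of all 7349 probe sets. Of these, 12 were lower in E14 than in ESVJ and 3 higher, where all probe sets gave 22.8% lower and 19.8% higher. The share of members is below that of all probe sets, and 10 of the 12 lower genes had a mean above 100 in both lines. The median of the members was -0.19 and that of all probe sets -0.09. E14 and ESVJ differ in line, in growth on feeders and in the RNA kit together, and these cannot be told apart. Markers of ES cells moved the same way: 10 of 10 were lower in E14 (median -0.76), with summed signals of 33921 to 39739 in E14 and 56516 to 64205 in ESVJ, as were 4 of 6 tested endoderm markers, while summed feeder markers were 2489 to 2614 and 2373 to 2570; the part of ES marker levels in the member differences was not tested.

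In the eIF2 and eIF2B class 5 of 9 genes were lower in E14 and 1 was higher. Eif2b1 read 1217, 1288 and 1472 in E14 against 2323, 2531 and 2090 in ESVJ, and the Cdk4 +/- line stayed at the level of its control with 1296, 1481 and 1365. The feeder-grown and feeder-free lines thus did not overlap for this gene, which was 1.73-fold lower in E14 (-0.79, SE 0.12, limma adjusted p = 0.000106). Eif2b5, the catalytic epsilon subunit of eIF2B, read 1037, 1134 and 1014 in E14 against 1781, 1764 and 2106 in ESVJ (-0.81, SE 0.14), and both of its probe sets passed. Eif2d was lower by 0.59 (SE 0.12), Eif2s2 by 0.82 (SE 0.18) and Eif2a by 0.54 (SE 0.14). Eif2b2, the beta subunit of eIF2B, was higher in E14 (1006, 945 and 932 against 704, 765 and 789), but the difference of 0.34 passed narrowly (adjusted p = 0.0372). It did not pass without any 1 of the 6 arrays (0.0514 to 0.110). The call was also lost with quantile normalization (0.29, adjusted p = 0.0787), with all 16 arrays in the fit (0.182) and with the 2 compared groups alone (0.062).

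Among eIF3 subunits, Eif3j1, a loosely bound subunit that acts in 40S binding, was higher in E14, with 4723, 4808 and 3573 against 2686, 2197 and 2778 (0.76, SE 0.19). Eif3k read 5531, 6201 and 6082 in E14 and 7164, 9361 and 7757 in ESVJ (-0.44, SE 0.12), and its promoter is among those printed above. Eif3f was lower by 1.17 (SE 0.34) on a dim probe set that read 28.6 to 98.8 in E14 and 116 to 299 in ESVJ. The call for Eif3f did not stand without E14 replicate 2 (-0.81, adjusted p = 0.0622) or ESVJ replicate 2 (-0.88, adjusted p = 0.0695). The other 7 eIF3 genes did not pass; the closest was Eif3m at -0.37 (adjusted p = 0.0501).

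In the eIF4F class, Eif4g3 was higher in E14 (590, 467 and 661 against 363, 390 and 216; 0.79, SE 0.22), and Eif4b was lower (2025, 2177 and 1788 against 2828, 2876 and 3510; -0.61, SE 0.20). Eif4e2 was lower by 0.40 (SE 0.14). Leaving out ESVJ replicate 3 ended the calls for Eif4g3 (0.55, adjusted p = 0.0519), Eif4b (-0.51, 0.0897) and Eif4e2 (-0.36, 0.0924). Without E14 replicate 3 Eif4b was at -0.53 (0.0744) and Eif4e2 at -0.31 (0.113), and without ESVJ replicate 2 Eif4e2 was at -0.41 (0.0586). The call for Eif4e2 was also lost with the mean of its probe sets (-0.36, 0.135), with all 16 arrays in the fit (0.0672), with the 2 compared groups alone (0.0548) and without the 3 arrays of high BioB signal described below (0.0744). The second probe set of Eif4b passed as well (-0.40, adjusted p = 0.0184). Neither eIF4E-binding protein gene passed; Eif4ebp2 was at 0.21 (SE 0.12, adjusted p = 0.185), and at 0.34 without ESVJ replicate 2 (0.0287). In the class of eIF1, eIF5 and eIF6 no chosen probe set passed, while a second probe set of Eif1a was lower in E14 (-0.46, adjusted p = 0.0157).

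Of the elongation factors, Eef1d, Eef1b2 and Eef1a1 were lower in E14. Eef1d read 1336, 1755 and 1594 against 2739, 2181 and 4091 (-0.89, SE 0.20), and it passed without each of the 6 arrays in turn. Eef1b2 was at 46.9, 72.2 and 63.3 against 105, 187 and 179 (-1.0, SE 0.31), and without ESVJ replicate 2 or 3 or E14 replicate 1 its adjusted p was 0.0666, 0.0614 and 0.0621. The second Eef1b2 probe set, below the filter, overlapped here too, at 77.9 to 120 in E14 and 75.3 to 111 in ESVJ. Eef1a1 read 16649, 17057 and 16698 in E14 and 19908, 24804 and 31814 in ESVJ (-0.58, SE 0.21, adjusted p = 0.0392). In the 3 ES arrays with the highest Eef1a1 (26816 to 31814) the spiked control BioB was also highest, at 2808 to 2985 against 557 to 1830 in the other 9, and 1 of them is ESVJ replicate 3. Without that array Eef1a1 differed by -0.40 (adjusted p = 0.170), and without E14 replicate 1, 2 or 3 or ESVJ replicate 2 its adjusted p was 0.0884, 0.0799, 0.0843 and 0.0801. With all 3 arrays of high BioB left out together, an alternative added after seeing the data, the Eef1a1 call stood. It was lost with no signal filter (adjusted p = 0.0799), with no intensity trend (0.0563) and with all 16 arrays in the fit (0.0575). Quantile normalization, which sets the highest signals of all arrays equal, left -0.02 (adjusted p = 0.786).

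**Figure D3:**
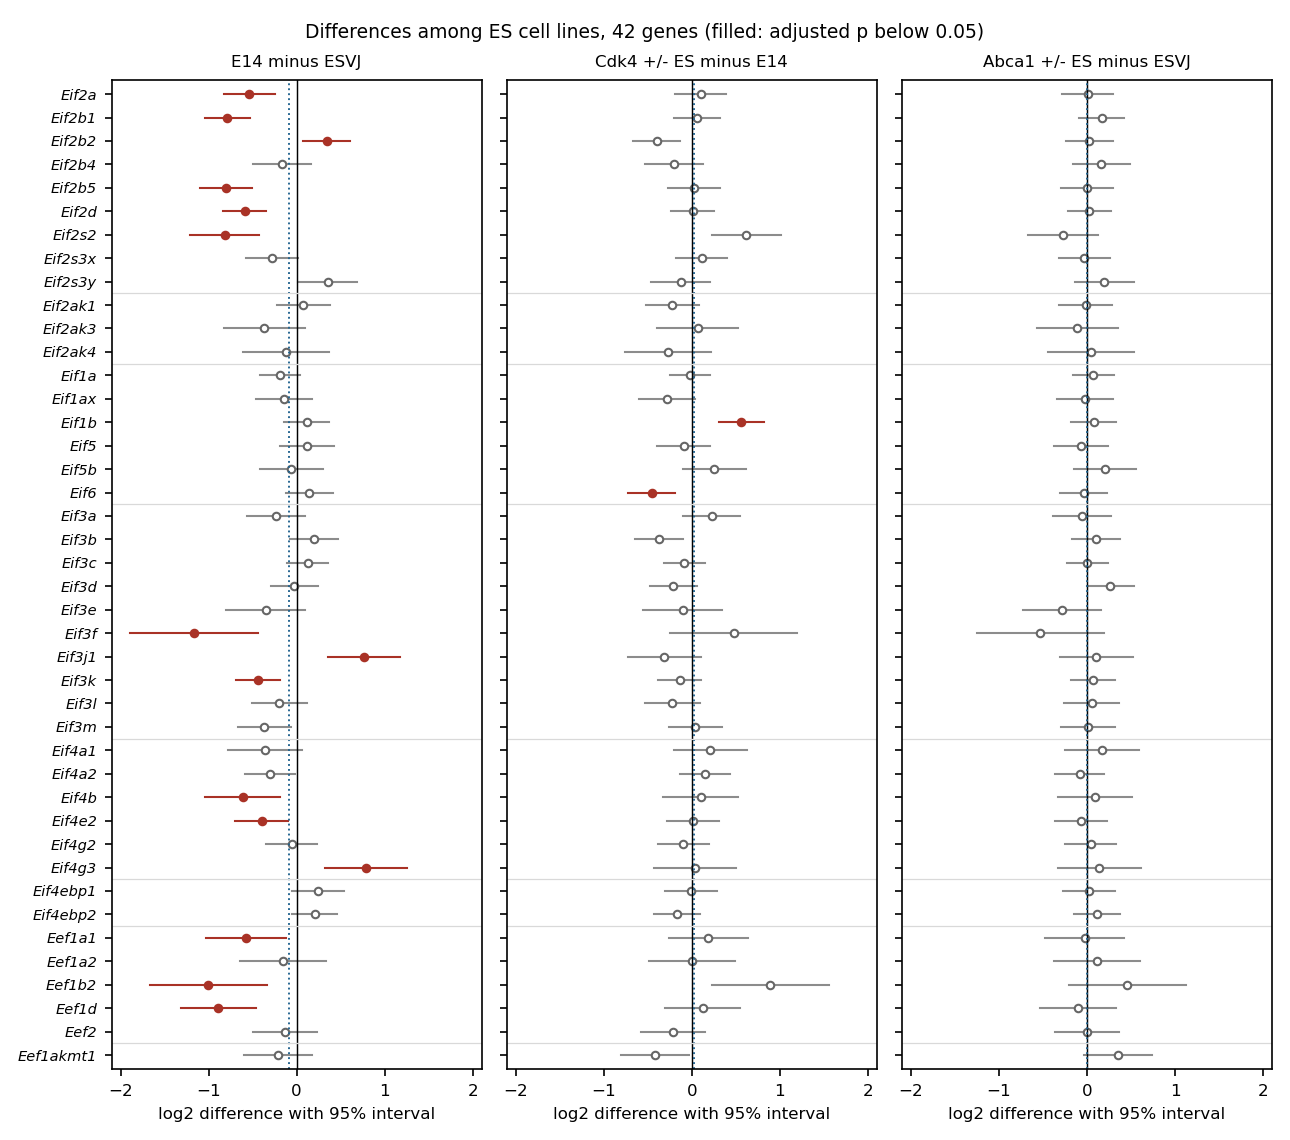
log2 differences with 95% intervals for the 42 genes tested among ES lines, in the same order in each panel; filled red points passed and dotted lines mark the median of all probe sets. The left panel (E14 minus ESVJ) has 12 filled points below 0 and 3 above, the middle panel (Cdk4 +/- ES minus E14) has Eif1b at 0.56 and Eif6 at -0.46, and the right panel (Abca1 +/- ES minus ESVJ) has none.

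For the other translation genes, the shares below are read against the 42.6% of all probe sets that differed between these lines. Among initiation partners, Mknk2 (0.88), Dap (1.49), Bzw1 (0.40) and Pabpc4 (0.46) were higher in E14 and Bzw2 (-0.55) and Paip2 (-0.33) lower, 6 of 12 in all; Bzw1 and Pabpc4 are named beyond the first 4 by p. The kinase genes Akt1 (1.86) and Akt2 (0.58) were higher, and Mtor (-0.57) and the mTORC1 inhibitor Sesn1 (-0.98) lower, among 11 genes. Of 20 synthetase genes 4 were lower (Kars -0.93, Aimp1 -0.50, Farsb -0.50, Rars -0.34) and Aimp2 was higher (0.44), and of 4 release and hypusination genes Gspt1 (-0.48) and Etf1 (-0.59) were lower. Ppp1r15a (-0.61) and Atf4 (-0.39) were lower among 8 genes of the ATF4 list, and Gfm1 (-0.51) among 4 mitochondrial factors.

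The Cdk4 +/- line differed from E14 in 2 of 42 members (4.76%), a share close to the 4.91% of all probe sets (2.59% higher and 2.33% lower). Eif1b was higher and Eif6 lower. The median of the members was -0.01 and that of all probe sets 0.02. An unadjusted p below 0.05 was found for 7 of 42 members and for 1529 of all 7349 probe sets. Eif1b read 1336, 1412 and 1384 in the Cdk4 +/- line, above all 9 arrays of the other ES groups (808 to 1021). Its 3 values in E14 were 1012, 899 and 867, and the 1.47-fold difference (0.56, SE 0.12, limma adjusted p = 0.0185) exceeded the spread of both groups. Without E14 replicate 2, Cdk4 +/- replicate 1 or Cdk4 +/- replicate 3 the difference stayed between 0.54 and 0.58 with adjusted p of 0.0696, 0.0619 and 0.0761. Eif6 read 2631, 2469 and 2615 in the Cdk4 +/- line and 3481, 3094 and 4111 in E14 (-0.46, SE 0.12, adjusted p = 0.0478), with ESVJ at 2899 to 3441. No call for Eif6 stood when any 1 of the 6 arrays was left out (differences of -0.55 to -0.35, adjusted p 0.0560 to 0.130).

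The 5 members with the smallest p included 3 that did not pass. These were Eif2s2 at 0.62 (SE 0.18, adjusted p = 0.0691; 1710, 1391 and 1577 against 1096, 1124 and 812), Eif2b2 at -0.40 (SE 0.12, adjusted p = 0.0772) and Eif3b at -0.37 (SE 0.13, adjusted p = 0.116). For Eif2s2 the groups did not overlap, and without the 3 arrays of high BioB signal, an alternative added after seeing the data, the difference was 0.70 (adjusted p = 0.0279). Eif3b was at -0.50 without Cdk4 +/- replicate 2 (adjusted p = 0.0349), at -0.47 without E14 replicate 3 (0.0498) and at -0.50 without the 3 arrays of high BioB (0.0334). In this comparison the 6 members with an E-box had a median of 0.22, from -0.21 to 0.56, and the 29 without one a median of 0.01, from -0.40 to 0.89. All classes other than that of eIF1, eIF5 and eIF6 had no member past the threshold: 0 of 9 for eIF2 and eIF2B, 0 of 10 for eIF3, 0 of 6 for eIF4F and 0 of 5 for elongation factors. Of 10 ES cell markers, 2 were higher in the Cdk4 +/- line and 8 did not pass (median 0.11). Their summed signals were 40648 to 46743 against 33921 to 39739 in E14, and their part in the member differences was not tested.

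**Figure D4:**
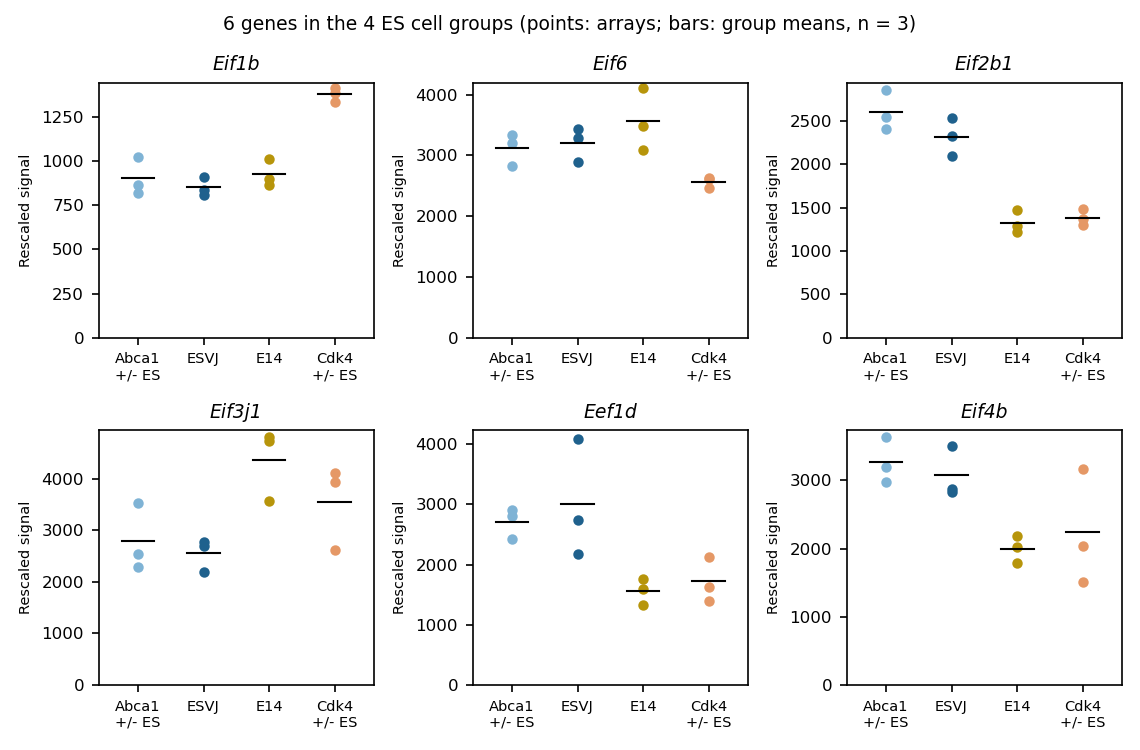
Rescaled signals of 6 genes in the 4 ES cell groups, each axis starting at 0, with a point for each array and a bar at the mean of 3. Eif1b in the Cdk4 +/- line (1336 to 1412) lies above the other groups, whereas Eif2b1 is split between the feeder-grown lines (2090 to 2854) and the feeder-free lines (1217 to 1481).

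Around the members, the list of eIF2 phosphatases and the ATF4 response gave 3 higher of 8 in the Cdk4 +/- line, where 2.59% of all probe sets were higher. Atf4, whose translation rises when eIF2alpha is phosphorylated, read 2898, 2648 and 2932 against 1354, 1467 and 1563 in E14 (0.94, SE 0.14, limma adjusted p = 0.00219). Ppp1r15b, a subunit that directs a phosphatase to eIF2alpha, was higher by 0.92 (SE 0.15), and the ATF4 target Trib3 by 1.86 (SE 0.36). Of 4 mitochondrial factor genes, Tsfm (-0.58) and Tufm (-0.59, adjusted p = 0.0498) were lower, and of 20 synthetase genes Tars (-0.60) and Aimp2 (-0.53). None of 12 initiation partners, 11 mTORC1 genes or 4 termination and hypusination genes passed.

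By the chosen probe sets, the Abca1 +/- line did not differ from ESVJ in any of the 42 members at an adjusted p of 0.05. None of these probe sets had an unadjusted p below 0.05, and 0.0272% of all probe sets passed. All adjusted p of the chosen probe sets were 0.9997 in the limma fit. A second probe set of Eif4ebp2, described below, was lower in the Abca1 +/- line without overlap but did not pass (617, 421 and 486 against 741, 883 and 665). The 5 members with the smallest p were Eif3d at 0.26 (interval -0.004 to 0.53), Eef1akmt1 at 0.35 (-0.03 to 0.73), Eif3f at -0.53 (-1.25 to 0.19), Eif2s2 at -0.27 (-0.67 to 0.12) and Eef1b2 at 0.46 (-0.21 to 1.12). For Eif2b1 the lines overlapped, at 2854, 2411 and 2546 in Abca1 +/- cells against 2323, 2531 and 2090. The median standard error of the members was 0.14. The difference between the Cdk4 and the Abca1 comparisons was tested directly and passed for 0 of 42 members, against 0.626% of all probe sets. At an unadjusted p below 0.05 were 7 of 42 members and 1120 of all 7349 probe sets. The 5 smallest p of the members were those of Eif2s2 (0.89, adjusted p = 0.130), Eef1akmt1 (-0.77, 0.165), Eif1b (0.49, 0.186), Eif3d (-0.47, 0.220) and Eif3b (-0.47, 0.226). Without E14 replicate 3 Eef1akmt1 passed (-1.0, adjusted p = 0.0327). In this test Ppp1r15b of the ATF4 list passed (1.05, SE 0.21, adjusted p = 0.0375).

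In liver, none of 40 members passed between the mice labelled Abca1 +/- and +/+, where 0.014% of all probe sets did. An unadjusted p below 0.05 was found for 7 of 40 members and for 1321 of all 7160 probe sets. With 2 arrays a group the median standard error was 0.37. Eif4ebp2, which restrains eIF4E, had the smallest p: its signals were 4822 and 2450 in the livers labelled Abca1 +/- and 912 and 567 in +/+ livers. The groups did not overlap, and the difference was 2.21 (SE 0.42, interval 1.28 to 3.14, limma adjusted p = 0.101). With 1 liver left out, 1 group is a lone array that is assumed to vary like the other group. The difference was then 2.53 without +/+ replicate 1 (adjusted p = 0.00810), 1.88 without +/+ replicate 2 (0.213), 1.72 without labelled replicate 1 (0.0870) and 2.69 without labelled replicate 2 (8.10e-04). With the mean of its probe sets it was 1.18 (0.111). The next smallest p belonged to Eif4g3 (265 and 144 against 54.1 and 39.4; 1.54, adjusted p = 0.172), Eif3c (2144 and 2364 against 1464 and 767; 1.06, 0.192), Eif2ak1 (623 and 377 against 217 and 238; 1.0, 0.195) and Eef2 (4268 and 5308 against 2812 and 2233; 0.92, 0.202). Without replicate 2 of the labelled livers, which leaves their group with replicate 1 alone, Eif2ak1 was at 1.34 and Eif4g3 at 1.92. Replicate 1 is the liver with the actin ratio of 8.23; without it no member passed, and the part of RNA quality in these values was not tested. The labelled livers also differed from each other in Xist (113 and 992), whose part was not tested. Summed markers of Kupffer cells and leukocytes were 6600 and 10455 in the labelled livers and 4436 and 6093 in +/+ livers, with 0 of 7 tested markers past the threshold; their part in the member values was not tested.

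The same labelled difference was then compared between liver and ES cells. The test of that difference passed for 1 of 41 members, Eif4ebp2 (2.09, SE 0.40, interval 1.23 to 2.95, limma adjusted p = 0.0290), where 2.38% of all probe sets passed. In the same test 13 of 41 members and 1770 of all 7883 probe sets had an unadjusted p below 0.05. In ES cells Eif4ebp2 read 1959, 2003 and 2102 in the Abca1 +/- line and 1750, 2255 and 1647 in ESVJ (0.11, SE 0.12), and 2058, 2176 and 2241 in E14 and 1919, 1967 and 1864 in the Cdk4 +/- line (-0.17, SE 0.12, adjusted p = 0.465). Over the 12 ES arrays the signal thus lay within 1647 to 2255, above both +/+ livers and below both livers labelled Abca1 +/-. The next smallest p in this test were those of Eef2 (0.91, adjusted p = 0.0901), Eif3c (1.06, 0.0962), Eif4g3 (1.40, 0.101) and Eif2ak1 (1.01, 0.109). The call for Eif4ebp2 was lost with quantile normalization (1.73, adjusted p = 0.0566) and when any 1 ES array or +/+ replicate 2 was left out (adjusted p 0.0665 to 0.123). Without the labelled liver of high actin ratio the value was 1.61 (adjusted p = 0.0403), in a fit that leaves 1 labelled liver and takes its spread from the other groups. Without replicate 2 of the labelled livers Eif4g3 was at 1.78 and Eif2ak1 at 1.35, and without +/+ replicate 1 Eif3c was at 1.51. Among probe sets not chosen for their gene, a second one of Eif4b passed (1.5, SE 0.28, adjusted p = 0.0294). Of 12 initiation partners, Pdcd4 (2.61), Ddx3x (1.55) and Pabpc1 (1.38) passed the same test, all higher in the labelled livers relative to the ES comparison.

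The probe sets of Eif4ebp2 did not give one answer. The second tested probe set read 270 and 457 in the livers labelled Abca1 +/- and 223 and 434 in +/+ livers, so that these groups overlapped (0.16, SE 0.41, interval -0.76 to 1.07), and the difference between tissues did not pass for it (0.72, SE 0.42, adjusted p = 0.332). In the Cdk4 +/- line that probe set was lower than in E14, with 601, 620 and 589 against 1054, 1023 and 917 (-0.69, SE 0.15, adjusted p = 0.0184), and with the mean of the probe sets Eif4ebp2 passed there (-0.43, adjusted p = 0.0488). In the Abca1 +/- line it read 617, 421 and 486 against 741, 883 and 665 in ESVJ, with no overlap, but the difference of -0.57 (SE 0.15, adjusted p = 0.974) did not pass. Both probe sets were lower in +/+ liver than in ESVJ (-1.34 and -1.20). The remaining probe set stayed below the filter and read at most 94.7 on any array.

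**Figure D5:**
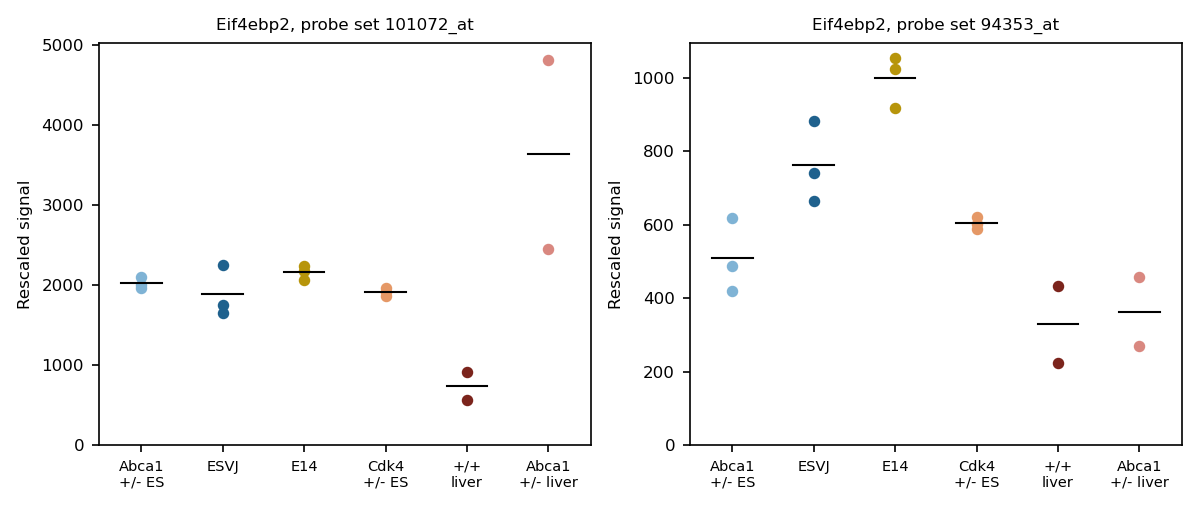
Rescaled signals of the 2 tested Eif4ebp2 probe sets in all 16 arrays, with a point for each array and a bar at the group mean; the axes start at 0 and differ in range. The chosen probe set (left) is at 4822 and 2450 in the livers labelled Abca1 +/- and at 912 and 567 in +/+ livers, whereas the second (right) overlaps between the livers (270 and 457 against 223 and 434).

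Several probe sets were tested for 9 of the members among ES groups and between tissues. They had the same sign in 7 of these 9 genes for liver against ESVJ and for E14 against ESVJ, in 6 of 9 for Cdk4 +/- against E14 and in 3 of 9 for Abca1 +/- ES against ESVJ.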

How the data were processed

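Expression was measured on 16 arrays. Signal intensities had been computed by the authors with MAS5 at its default settings, per the labels' protocols, and were used as deposited. Each array was rescaled to a trimmed mean of 500 (2% trimmed at each end), 32 was added, and log2 values were fitted with limma 3.58.1 in R 4.3.3 (trended eBayes). The ES comparisons shared a fit of 12 arrays, the livers one of 4, and liver against ES cells one of the feeder-grown lines and livers. Probe sets needed a mean of 100, and array controls were left out. Gene names came from a GEO platform annotation, and synthetase list names were matched through RefSeq synonyms. The script was tested on simulated data. The precision is limited by the number of arrays in a group. Members and lists were chosen with earlier results of these data known. Named were all members that passed, up to 30 a comparison by p, the 5 smallest p where fewer than 5 passed, up to 4 genes of each other list, and Eif4ebp2. Alternatives covered scaling, pseudocount, filter, trend, probe sets of a gene, arrays fitted and single arrays left out.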

Additional observations from a re-analysis of the deposited data

Results flagged for a closer look

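For Eif4ebp2 the difference labelled Abca1 +/- minus +/+ was 2.09 larger on the log2 scale in liver (2.21) than in ES cells (0.11), by the interaction test of the limma fit (adjusted p = 0.0290). As 1 of 41 members it stands beside a share of 2.38% of all probe sets. It did not pass with quantile normalization (1.73, adjusted p = 0.0566), without any 1 ES array of the fit (0.0665 to 0.0838) or without +/+ liver replicate 2 (1.77, 0.123). It rests on 2 livers a group and on 1 of its 2 tested probe sets, since the other gave 0.72 (adjusted p = 0.332), and in these livers Abca1 itself was higher where the label says +/-.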

How the results depend on the processing

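Of 1320 recomputed values for 79 named differences, 1236 kept direction and side of the threshold, 61 lost their call, 22 gained one and 1 reversed: Eif4ebp2 in Abca1 +/- ES minus ESVJ, at -0.23 when the probe sets of a gene were averaged. The 15 members called in E14 minus ESVJ became 11 to 14 with single arrays left out, and the 35 called in +/+ liver minus ESVJ 33 to 35. The 2 members called in Cdk4 +/- ES minus E14 became 1 with no signal filter, 1 with no intensity trend, 1 with only the compared groups, 0 with all 16 arrays in one fit, and 0 to 3 with single arrays left out. The count of 0 in Abca1 +/- liver minus +/+ liver became 13 with all 16 arrays in one fit and 0 to 8 with single arrays left out. The count of 1 for the Abca1 effect in liver minus that in ES became 0 with quantile normalization, 6 with all 16 arrays and 0 without any 1 ES array. With a liver left out, its count too was highest where the labelled group was replicate 1 alone. The count of 0 for the Cdk4 effect minus the Abca1 effect ranged from 0 to 1, and that in Abca1 +/- ES minus ESVJ stayed 0. The cause was not tested. The livers, at 2 a group, limit what could be called. No paired analysis was possible because the labels carry no replicate numbers; those used here only name arrays.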
